A study of Mus musculus with 6 samples.

Results

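The interferon-inducible GTPases described here are 9 genes, 5 guanylate-binding proteins (Gbp2, Gbp3, Gbp5, Gbp6 and Gbp7) and 4 immunity-related GTPases (Igtp, Irgm1, Irgm2 and Iigp1), out of 21878 genes in the deposited tables. They were selected on their gene names, with the counts of this same contrast already known from earlier results, so their levels in both groups are given as a description. How many of them a fit over all genes called is given only as a count beside the share of all genes called, and is no test of the members. All 9 had a row, and all 9 passed the filter on low counts. Every one of them was lower on average in Gls1_CamkIIaCre cortex than in control cortex, by 1.37-fold (Gbp5) to 3.56-fold (Iigp1).

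Guanylate-binding proteins and immunity-related GTPases are large GTP-hydrolysing proteins of cell-autonomous immunity. Interferon gamma, and to a lesser degree type I interferon, switches on their genes. Promoters of such genes commonly hold GAS elements and interferon-stimulated response elements (ISRE), and Irf1 and Irf9 are among the factors that act at ISRE sequences. The proteins coat the vacuoles of intracellular pathogens, and in brain they are known as sensitive readouts of interferon exposure in microglia, astrocytes and endothelial cells.

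RNA was sequenced in bulk from the prefrontal cortex of 6 mice, 3 in each group, with no sorting of cells. Control mice carried CamKIIαCre with 2 normal Gls1 alleles (CamKIIαCre;Gls1+/+), and Gls1_CamkIIaCre mice carried CamKIIαCre with 1 floxed Gls1 allele (CamKIIαCre;Gls1+/flox), so both groups carried the Cre. The promoter is active in excitatory forebrain neurons, so the loss of the allele is mosaic. The controls were littermates, per the series description, and age is not stated. Levels are given as CPM (counts scaled to library size). Means below are given ± SD over the 3 libraries of a group, and fitted log2 fold changes ± an SE. This SE was worked back from the edgeR test, as the absolute log2 fold change over the square root of its F statistic. Libraries held 17987807 to 19330961 counts. Of 14440 genes tested, 1190 (8.24%) were called by edgeR at an adjusted p under 0.05, 571 higher and 619 lower in Gls1_CamkIIaCre.

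The 9 genes lie in clusters of their families. By RefSeq on GRCm38, Gbp5 (chr3:142496934-142522344), Gbp7 (chr3:142530336-142550151), Gbp3 (chr3:142560016-142573213) and Gbp2 (chr3:142620663-142638008) follow one another on chromosome 3. Gbp6 (chr5:105270702-105295871) belongs to a second cluster on chromosome 5. Igtp (chr11:58199556-58207592) and Irgm2 (chr11:58214977-58222783) are neighbours on chromosome 11, and Irgm1 (chr11:48865245-48871420) lies apart from them on that chromosome. No member overlaps another protein-coding gene.

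The promoters show what the members share beyond their level. RefSeq promoter windows (GRCm38.p6), of 250 bases before and 50 after a start site, were found for 7 of the 9 genes. Each window was searched on both strands for the ISRE core, which is GAAA, any 2 bases and GAAA again, and for the GAS core TTCNNNGAA, which reads the same on both strands. The 100 bases before the first annotated base are shown for 2 genes of each family, 5′ to 3′ on the strand of the gene, with the bases of any match in capitals. They are Gbp2 (chr3:142620563-142620662, plus strand) and Gbp3 (chr3:142559916-142560015, plus strand), which show an ISRE core without a GAS core, and Igtp (chr11:58199456-58199555, plus strand) and Irgm2 (chr11:58214877-58214976, plus strand), which show both side by side.
Gbp2: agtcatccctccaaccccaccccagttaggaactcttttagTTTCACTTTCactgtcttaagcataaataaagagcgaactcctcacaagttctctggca
Gbp3: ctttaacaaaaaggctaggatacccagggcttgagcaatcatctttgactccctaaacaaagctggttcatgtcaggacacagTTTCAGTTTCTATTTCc
Igtp: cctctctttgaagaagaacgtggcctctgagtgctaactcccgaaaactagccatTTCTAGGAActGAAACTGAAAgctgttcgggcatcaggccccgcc
Irgm2: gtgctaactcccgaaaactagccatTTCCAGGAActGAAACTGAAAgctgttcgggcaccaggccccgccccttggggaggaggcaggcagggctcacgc

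The ISRE core was present in the windows of all 7 genes (Gbp2, Gbp3, Gbp5, Gbp7, Igtp, Irgm1 and Irgm2), against 3.99% of the 27025 genes with a window. The GAS core was present in 4 of the 7 (Gbp5, Gbp7, Igtp and Irgm2), against 9.55% of all genes, and both motifs together in the same 4, against 0.614% of all genes. In Gbp3 and Irgm1 a pair of overlapping ISRE matches lay within 45 bases of the start, so the capitals of Gbp3 run on past a single core. A second window of Gbp3, at another start site, held neither motif. In Igtp and Irgm2 the GAS match stands just before the ISRE match at the same spacing, and the longest run of identical bases between their printed windows was 29. Among the other interferon-induced GTPases with a window, 6 of 9 held the ISRE core, and among type I interferon-stimulated genes 12 of 23. None of 11 dynamin-like and IRG-like GTPases that interferon is not known to induce held either motif. At shares of 3.99% and 9.55% over all genes, 11 genes are too few for this to set them apart. These matches describe letters in a window and do not show binding.

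**Figure D1:**
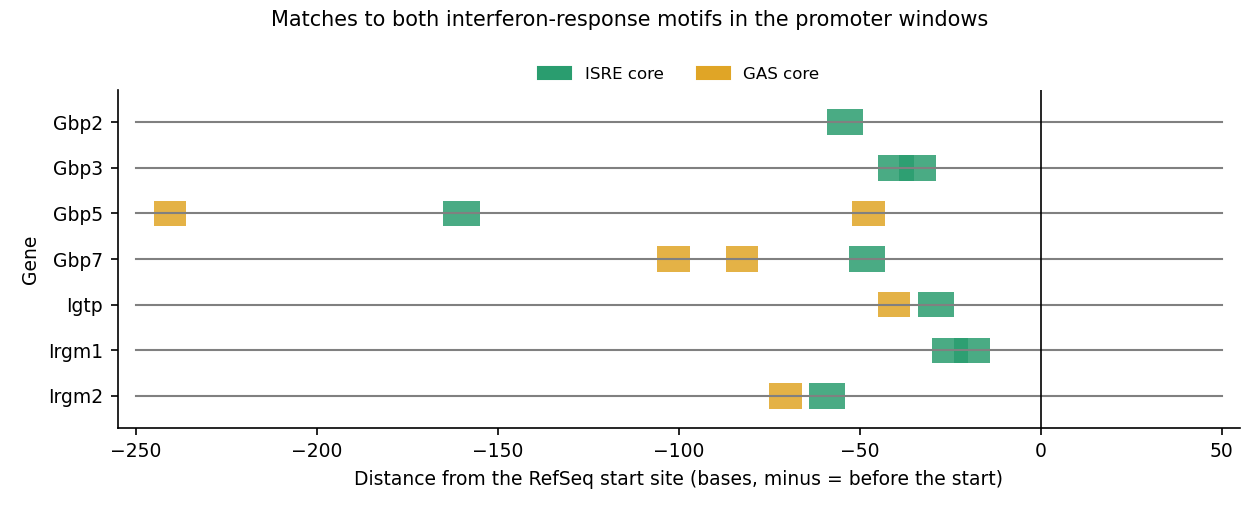
Matches to the ISRE core (green) and the GAS core (yellow) in the promoter windows of 7 members, by distance in bases from the RefSeq start site; grey lines are the windows, from 250 bases before to 50 bases after the start. Every gene shown has an ISRE match, and in Igtp and Irgm2 a GAS match stands just before it. The second window of Gbp3, at another start site, held neither motif.

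Among the guanylate-binding proteins, the fold between groups was largest for Gbp2, Gbp3 and Gbp6. Values are TMM-normalised CPM, in the order of replicates 1, 2 and 3. Gbp2, a prenylated protein that attacks pathogen vacuoles, had 14.8, 7.55 and 7.53 CPM in the controls and 4.34, 3.51 and 3.22 CPM in Gls1_CamkIIaCre, a mean of 9.94 ± 4.16 against 3.69 ± 0.581 CPM. Gbp3 had 17.7, 10.3 and 8.83 CPM in the controls and 5.19, 5.07 and 4.17 CPM in Gls1_CamkIIaCre. In both genes every Gls1_CamkIIaCre library lay below every control library, and control 1 stood far above the other controls. The fitted log2 fold change was -1.43 ± 0.32 for Gbp2 and -1.35 ± 0.30 for Gbp3.

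Gbp6, of the chromosome 5 cluster, had 12.05, 5.87 and 5.49 CPM in the controls and 3.27, 2.28 and 2.06 CPM in Gls1_CamkIIaCre, with a log2 fold change of -1.62 ± 0.39. The groups did not overlap. The value of Gbp6 depends on how shared reads were counted, because 53.2% of the 75-base stretches of its longest transcript also occur in Gbp10 or another gene of the table. For the other 8 members the share found in genes of the table was 0 to 8.37%. Over transcripts of all other annotated genes, with or without a row, the share was 86.0% for Gbp6 and 11.4% for Gbp7.

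Gbp5 and Gbp7 differed least. Gbp7 had 15.3, 11.3 and 11.2 CPM in the controls and 9.21, 7.41 and 9.23 CPM in Gls1_CamkIIaCre, with a log2 fold change of -0.55 ± 0.13 and no overlap between groups. Gbp5, which promotes assembly of the Nlrp3 inflammasome, had 8.01, 4.72 and 5.005 CPM in the controls and 4.87, 3.34 and 4.69 CPM in Gls1_CamkIIaCre. It was the 1 member whose groups overlapped, since Gls1_CamkIIaCre 1 lay above control 2, and its log2 fold change of -0.46 ± 0.21 was the smallest of the 9.

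Among the immunity-related GTPases, Irgm1, Irgm2 and Igtp are regulatory proteins that guard the cell's own membranes and hold effector GTPases inactive. Irgm1, also known for its part in autophagy, had 26.4, 19.0 and 17.4 CPM in the controls and 10.01, 11.2 and 11.1 CPM in Gls1_CamkIIaCre, a mean of 20.9 ± 4.84 against 10.8 ± 0.651 CPM. Its groups stood well apart, and its log2 fold change of -0.96 ± 0.15 was large for its error. Irgm2 had 19.2, 10.4 and 8.99 CPM in the controls and 5.30, 3.62 and 4.27 CPM in Gls1_CamkIIaCre, with a log2 fold change of -1.55 ± 0.38.

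Igtp, the gene of Irgm3, had 19.0, 9.59 and 9.85 CPM in the controls and 6.16, 7.19 and 7.12 CPM in Gls1_CamkIIaCre. Its groups did not overlap, and its log2 fold change was -0.91 ± 0.33. Iigp1, an effector that loads onto parasite vacuoles, showed the largest difference of the 9 and also the widest spread. It had 18.1, 7.55 and 6.78 CPM in the controls and 4.39, 2.17 and 2.53 CPM in Gls1_CamkIIaCre, with a log2 fold change of -1.83 ± 0.59.

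**Figure D2:**
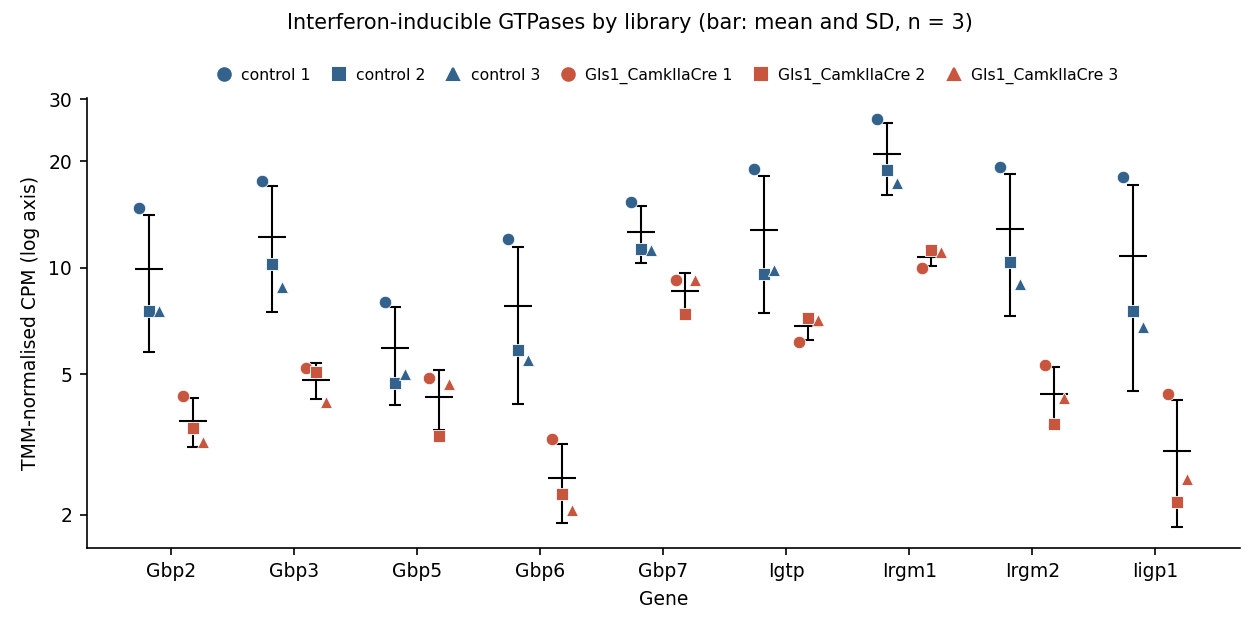
TMM-normalised CPM (log axis) of each of the 9 genes in each library, controls in blue and Gls1_CamkIIaCre in red, with the symbol giving the replicate and the bar the mean and SD of 3 libraries. Control 1 is the highest library for all 9 genes, and only Gbp5 overlaps between groups.

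Gbp2, Gbp3, Gbp7 and Irgm1 were called lower by edgeR over all genes (4 of 9, 4.29% of all genes tested), and 0 of 9 were called higher (3.95% of all genes tested). In 8 of 9 members all Gls1_CamkIIaCre libraries lay below all controls, as in 13.6% of all genes tested. A log2 fold change of -0.5 or lower was found in 8 of 9, and in 3.29% of all genes tested. The median log2 fold change was -1.35 over the 9 members and -0.0024 over all genes tested. Because the members were chosen with this contrast in view, these counts support nothing. The counts behind them are small, between 39 and 518 per gene and library.

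The controls differed among themselves for these genes. Control 1 was the highest library for 9 of 9 members, at 1.36 (Gbp7) to 2.52 times (Iigp1) the mean of controls 2 and 3, and at 1.5 times or more for 7 of 9. Across all genes tested 2.22% reached 1.5 times, and the median ratio was 0.998. Controls 2 and 3 lay close together, with a ratio of control 3 to control 2 between 0.859 and 1.06. The Gls1_CamkIIaCre libraries varied without a common order: Gls1_CamkIIaCre 1 was the highest for 6 members, Gls1_CamkIIaCre 2 for 2 and Gls1_CamkIIaCre 3 for 1. This contrast among controls rests on 1 library and has no test.

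Without control 1 the members remained lower in Gls1_CamkIIaCre by a smaller amount and with smaller errors. The median log2 fold change was -0.99, and the values ranged from -0.17 (Gbp5) to -1.24 (Iigp1). The number called lower by edgeR was then 7 of 9, namely all but Gbp5 and Gbp7, where 3.06% of all genes tested were called lower. The number was 3 without control 2 (2.4% of all genes tested called lower) and 6 without control 3 (3.72%). It was 2 without Gls1_CamkIIaCre 1 (2.71%), 1 without Gls1_CamkIIaCre 2 (1.49%) and 2 without Gls1_CamkIIaCre 3 (3.0%). With all libraries, 7 of 9 were called lower by DESeq2, against 3.26% of all genes tested, and 8 of 9 by limma voom, against 3.73%.

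**Figure D3:**
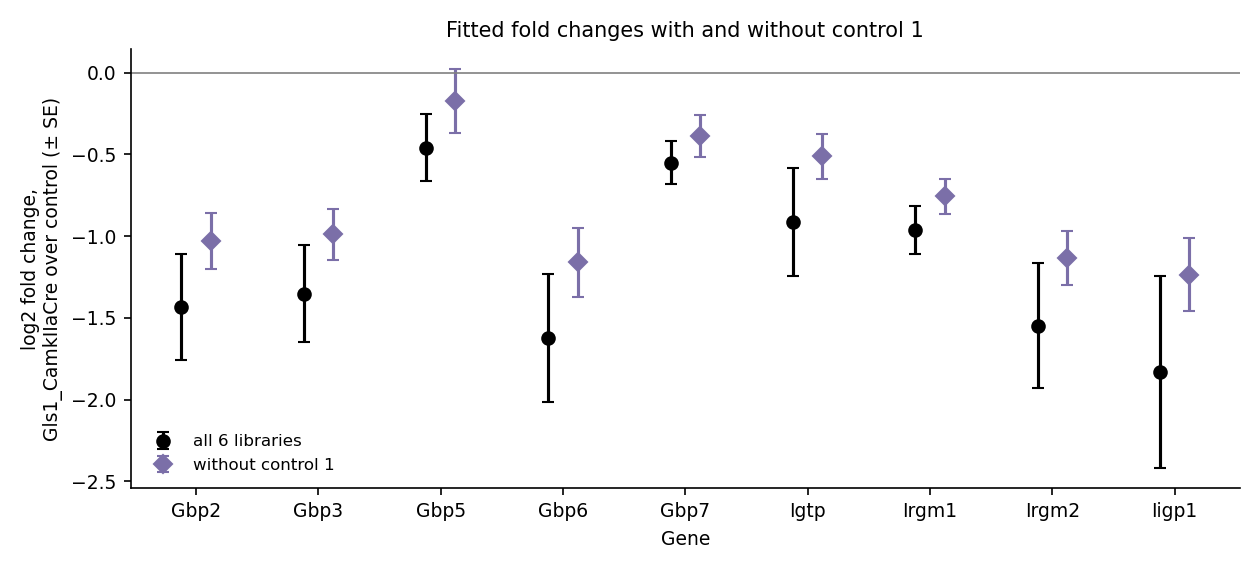
Fitted log2 fold change of Gls1_CamkIIaCre over control with its SE for the 9 genes, from all 6 libraries (black circles) and without control 1 (purple diamonds). All values lie below 0 in both fits, from -1.83 to -0.46 with all libraries and from -1.24 to -0.17 without control 1.

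Levels of different members can be compared only per length, in the deposited FPKM values. In the controls Irgm1 was the highest at 5.07 ± 1.28 FPKM, followed by Igtp at 4.66 ± 2.01, Irgm2 at 2.85 ± 1.26, Gbp2 at 2.79 ± 1.21 and Gbp3 at 2.48 ± 1.01 FPKM. Iigp1 had 1.96 ± 1.15, Gbp5 1.40 ± 0.451, Gbp7 1.40 ± 0.256 and Gbp6 0.920 ± 0.457 FPKM. No 2 neighbours in this order had control ranges that stood apart, although Igtp exceeded Irgm2, Gbp3 exceeded Iigp1 and Gbp7 exceeded Gbp6 in all 6 libraries. By their means 3 steps of the order were reversed in Gls1_CamkIIaCre. For Irgm2 over Gbp2 and for Gbp2 over Gbp3 the upper gene was higher in 2 of 3 controls and in 1 of 3 Gls1_CamkIIaCre libraries. Iigp1 was above Gbp5 in 3 of 3 controls and in 0 of 3 Gls1_CamkIIaCre libraries, where Iigp1 averaged 0.558 ± 0.238 and Gbp5 0.982 ± 0.193 FPKM.

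Other interferon-induced GTPases that are not among the 9 were tested in the same fit. Of 21 listed, 18 had a row, 12 passed the filter on low counts, 5 fell, 0 rose and 7 did not pass, with a median log2 fold change of -1.35. The 2 T-cell-specific GTPase genes fell: Tgtp2 went from 3.50 ± 1.65 to 0.828 ± 0.415 CPM, a log2 fold change of -2.08 ± 0.39 (edgeR adjusted p = 0.00609), and Tgtp1 from 1.76 ± 0.603 to 0.698 ± 0.177 CPM (adjusted p = 0.0227). These are near-identical genes whose reads could be shared. Ifi47, another immunity-related GTPase, fell from 2.50 to 0.882 CPM (edgeR adjusted p = 0.0105), and Gm4951, an immunity-related GTPase gene model, from 2.45 to 0.610 CPM (0.0441).

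Gbp10, the near copy of Gbp6, had 69, 17 and 20 counts in the controls and 6, 1 and 1 in Gls1_CamkIIaCre (log2 fold change of -3.62 ± 0.83, edgeR adjusted p = 0.0310). Without control 1 it passed at an edgeR adjusted p of 0.0146. Gbp4 and Gbp9, members of the chromosome 5 cluster, had 6.08 ± 2.83 against 4.39 ± 0.433 CPM (edgeR adjusted p = 0.461) and 11.1 ± 4.30 against 7.43 ± 0.676 CPM (0.281). F830016B08Rik had 1.70 against 0.374 CPM (0.0501), Gm12250 1.41 against 0.541 CPM (0.117), and Gvin1, a very large induced GTPase, 0.926 against 0.649 CPM (0.474). Gm4070 and 9930111J21Rik1 had adjusted p of 0.746 and 0.827. Gbp2b, Gbp8, Gm4841, Gm5431, Gm12185 and 9930111J21Rik2, all too low to test, had 0 to 19 counts in any library.

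The calls of this list rested on few libraries. Without Gls1_CamkIIaCre 2 none of the 5 passed by edgeR, with an adjusted p of 0.0641 for Tgtp2, 0.0567 for Ifi47, 0.120 for Tgtp1, 0.128 for Gbp10 and 0.177 for Gm4951. Without control 1 only Tgtp2 (0.0085) and Gbp10 passed, without Gls1_CamkIIaCre 3 the count was 3, and without control 2, without control 3 or by DESeq2 it was 6.

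GTPases of related structure that interferon is not known to induce were set beside the members. Of 12 dynamin-like, atlastin, mitofusin and IRG-like genes, 11 were tested, 0 fell and 2 rose, with a median log2 fold change of 0.029. Dnm1, the dynamin of synaptic vesicle retrieval, rose from 1017 ± 50.7 to 1175 ± 55.5 CPM (edgeR, 0.00566 after adjustment of p), and Mfn2, a mitofusin, from 203 ± 4.34 to 228 ± 6.02 CPM (0.0118). Neither was called without Gls1_CamkIIaCre 2 or on log2(FPKM + 1), and without control 1 only Dnm1 was.

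The upstream pathway was described from a list of ligands, receptors, kinases, transcription factors and feedback genes. The ligands were at or near the limit of detection. Ifng had 2 counts in control 1, 1 in Gls1_CamkIIaCre 2 and 0 in the other 4 libraries, and Ifnb1 and Ifna4 had 0 counts in all 6, where a count of 0 allows up to 3 counts, or 0.155 to 0.167 CPM, per library, for counting error only. The receptor genes Ifngr1 (17.0 ± 0.628 against 15.8 ± 0.914 CPM, edgeR adjusted p = 0.518), Ifngr2 (48.1 ± 0.947 against 47.9 ± 1.68 CPM, 0.954), Ifnar1 (56.1 ± 3.42 against 57.7 ± 3.37 CPM, 0.755) and Ifnar2 (17.6 ± 1.95 against 17.2 ± 1.07 CPM, 0.912) did not pass.

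Of the 30 pathway genes, 25 were tested, 6 fell, 2 rose and 17 did not pass, with a median log2 fold change of -0.084. All 6 that fell are themselves interferon-induced. Irf7, the amplifier of type I interferon, fell from 5.53 ± 2.83 to 1.39 ± 0.290 CPM (edgeR adjusted p = 0.0189). Nlrc5, the transactivator of MHC class I genes, fell from 4.47 to 1.38 CPM (0.00348), and Usp18, which damps type I receptor signalling, from 3.03 to 0.937 CPM (0.00173). Irf8, a factor of microglia and macrophages, fell from 6.85 to 3.78 CPM (0.00511), Irf9 from 12.6 to 8.90 CPM (0.0349), and Irf1 from 8.88 to 6.42 CPM (0.0431). Jak1 and Pias1 rose, by log2 fold changes of 0.16 (edgeR adjusted p = 0.0305) and 0.17 (0.0272).

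These calls rested on few libraries. Without control 1, edgeR no longer called Irf1 (adjusted p = 0.208), Irf9 (0.193), Jak1 (0.119) or Pias1 (0.0614), and the pathway count was 5. It was 4 without Gls1_CamkIIaCre 1 or Gls1_CamkIIaCre 3 and 3 without Gls1_CamkIIaCre 2, where Irf7 had an edgeR adjusted p of 0.0891.

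Genes that interferon induces along with these GTPases were lower too, and on average their level was highest in control 1. Of 29 tested type I interferon-stimulated genes, 18 fell and 0 rose, with a median log2 fold change of -0.92 (-0.62 without control 1). The smallest p belonged to Bst2, Ifit3b, Lgals3bp, Isg15, Ifi27 and Ifit1. Lgals3bp, a secreted glycoprotein, fell from 22.1 ± 4.06 to 13.1 ± 0.145 CPM (edgeR adjusted p = 0.000734), and Ifit1, which binds viral RNA, from 8.20 ± 2.52 to 3.02 ± 0.633 CPM (0.00118). The count was 10 without Gls1_CamkIIaCre 2. This list repeats a pattern already known in these libraries and is no independent evidence.

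Of 20 tested genes of antigen presentation and the immunoproteasome, 5 fell and 0 rose, with a median log2 fold change of -0.62. Tap1, a peptide transporter, fell from 7.35 ± 2.22 to 3.37 ± 0.647 CPM (edgeR adjusted p = 0.00414). Psmb8, an immunoproteasome subunit, fell from 5.71 to 2.83 CPM (0.0123), H2-T23 from 20.5 to 12.6 CPM (0.0236), Tapbp, the tapasin gene, from 30.5 to 25.4 CPM (0.0326), and H2-Q4 from 12.9 to 6.76 CPM (0.0436). The MHC class II genes Cd74, H2-Aa, H2-Ab1 and H2-Eb1 had fitted log2 fold changes of -2.04, -1.87, -1.73 and -1.61 with adjusted p of 0.135, 0.136, 0.205 and 0.214. Without control 1 all 4 passed (edgeR adjusted p of 0.00017, 0.000622, 0.0166 and 0.0249), Psmb8 (0.0636) and Tapbp (0.172) did not, and the list's count was 10. The count was 1 without Gls1_CamkIIaCre 1, 2 without Gls1_CamkIIaCre 2 and 3 without Gls1_CamkIIaCre 3.

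Genes whose products the GTPases work with lay on both sides of 0. Of 27 tested genes for loading onto membranes by the autophagy conjugation system, for prenylation and for inflammasomes, 2 fell and 1 rose, with a median log2 fold change of -0.020. Gabarap and Gabarapl2, autophagy proteins that help to place these GTPases on the right membranes, fell by 0.15 and 0.18 on the log2 scale (edgeR adjusted p = 0.0301 and 0.0318), and Tbk1, a kinase of antiviral signalling, rose by 0.18 (0.0432). Neither Gabarap (0.0819) nor Gabarapl2 (0.0767) passed without control 1, and 0 of the list passed without control 2, Gls1_CamkIIaCre 2 or Gls1_CamkIIaCre 3. Some members of the list that did not pass had fitted log2 fold changes near in size to those of Gbp5 (-0.46) and Gbp7 (-0.55), in either direction. They were -0.55 for Trim21, -0.55 for Pycard and -0.53 for Casp4, and 0.43 for Nlrp3 and 0.41 for Casp1 (0.72 without control 1), with edgeR adjusted p of 0.0951, 0.145, 0.516, 0.503 and 0.300. Aim2, a DNA sensor of inflammasomes that interferon also induces, stood at 3.44 ± 0.220 CPM in control and 4.51 ± 0.526 CPM in Gls1_CamkIIaCre, which did not pass (edgeR adjusted p = 0.183).

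**Figure D4:**
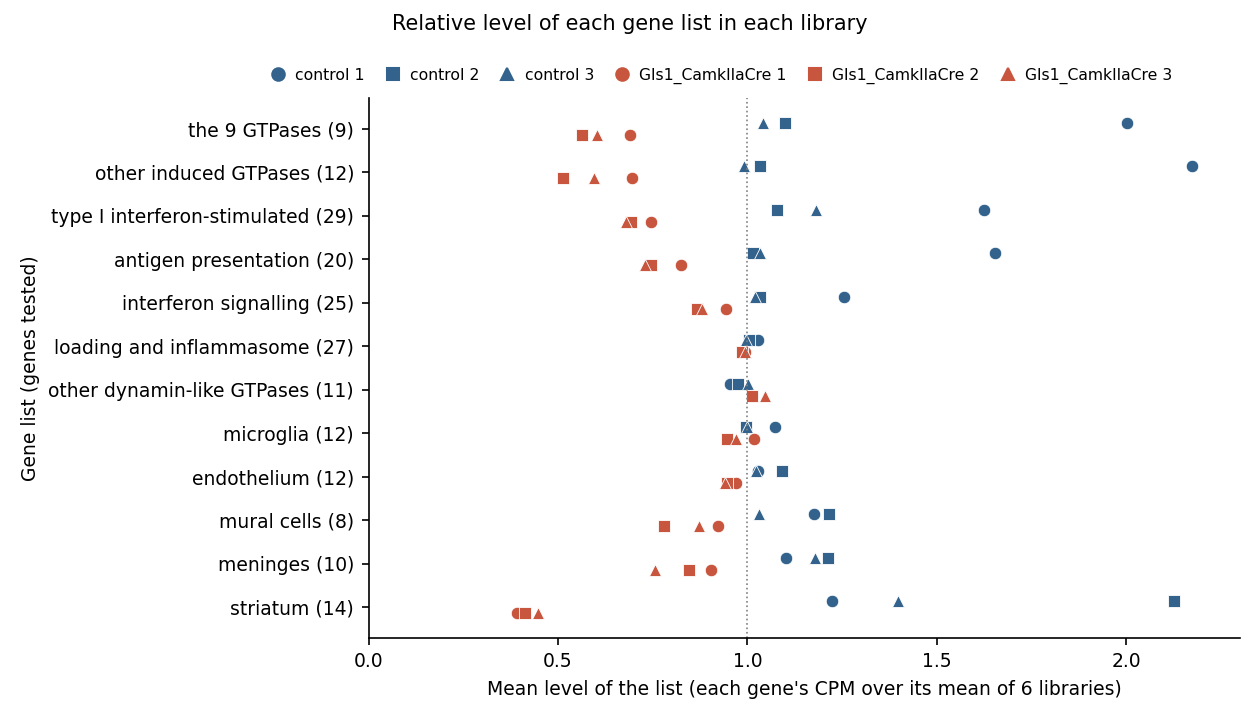
Mean level of each gene list in each library, as each gene's CPM divided by its mean over 6 libraries and averaged over the genes tested (number in brackets), controls in blue and Gls1_CamkIIaCre in red with the symbol giving the replicate. The 4 interferon-induced lists share a high control 1, whereas the striatum list is highest in control 2 and the microglia list stays near 1.

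In bulk tissue, fewer cells of a type and less RNA per cell cannot be told apart, so the markers of cells that could carry these transcripts were set beside them. Relative to each gene's mean over 6 libraries, the 9 GTPases stood at 2.003, 1.10 and 1.04 in controls 1, 2 and 3, and at 0.690, 0.564 and 0.603 in Gls1_CamkIIaCre. Of 12 microglia markers 0 passed by edgeR, and their summed level was 481 to 520 CPM in the controls and 471 to 492 CPM in Gls1_CamkIIaCre. Of 12 endothelial markers 3 fell (Cldn5, Itm2a and Kdr), with sums of 421 to 457 against 394 to 407 CPM. Of 6 tested perivascular macrophage markers 0 passed, with sums over 7 genes of 14.3 to 15.7 against 13.9 to 18.3 CPM. In the 3 lists no marker was at 0 in all libraries.

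The sums of mural, meningeal fibroblast and striatum markers stood apart between groups, as those of endothelial markers did. The sums of astrocyte, oligodendrocyte and neuron markers overlapped between groups. Of 8 mural markers 5 fell, with sums of 280 to 321 against 244 to 266 CPM, and of 10 meningeal fibroblast markers 7 fell, with sums of 184 to 206 against 139 to 161 CPM. Astrocyte markers summed to 5421 to 5745 against 5341 to 5538 CPM (4 of 10 fell), and oligodendrocyte markers to 3388 to 4015 against 3085 to 3537 CPM (3 of 9 fell). Neuron markers summed to 11253 to 11622 against 11449 to 12293 CPM, and 2 of 9, the inhibitory markers Gad2 and Slc32a1, fell. Striatum markers were present as well, at 960 to 1601 CPM in the controls against 408 to 466 CPM in Gls1_CamkIIaCre, and 11 of 14 fell. Between groups, the striatum markers and the GTPases were both lower in Gls1_CamkIIaCre. Among the controls the striatum level was lowest in control 1 (1.22, against 2.13 and 1.40 in controls 2 and 3), where the GTPases were highest, which rests on 1 library. The part of these cells and regions in the GTPase difference was not tested.

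Transcripts of lymphocyte and neutrophil markers were few. Over 13 markers of T cells, natural killer cells and neutrophils the sum was 6.38 to 10.2 CPM in the controls and 2.17 to 3.06 CPM in Gls1_CamkIIaCre. Cd4 alone gave 3.16, 8.17 and 6.19 CPM of the sums in controls 1, 2 and 3. Cd4 fell from 5.84 ± 2.52 to 0.865 ± 0.156 CPM (edgeR adjusted p = 0.00147) and was lowest among the controls in control 1. The sum over the 13 markers was also lowest in control 1, at 6.38 CPM against 10.2 and 8.18 CPM in controls 2 and 3. Cd3e and Gzma, picked from this list after their values were seen, went the other way, with their highest counts in control 1. This pair does not stand for the list, whose other markers are not described singly. The T cell receptor component Cd3e had 8, 6 and 2 counts in the controls and 0 in each Gls1_CamkIIaCre library, and the cytotoxic granule gene Gzma had 17, 3 and 8 counts against 2, 0 and 1. These were too low to test.

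The genes whose pattern over the 6 libraries was most like that of the members were also interferon-induced for the most part. Likeness was the mean absolute difference, in log2(CPM + 0.5), between a gene and the members' mean profile, each centred on its own mean. Over 13254 candidate genes the median difference was 0.526, and the 9 members themselves, which made the profile, lay between 0.104 (Gbp2) and 0.327 (Gbp5). The 8 nearest genes were Ifit3 (0.0692), Ccl12 (0.0991), H2-Q4 (0.0992), Ddx60 (0.117), Ifit1 (0.119), Tgtp1 (0.122), Tap1 (0.135) and Nlrc5 (0.144). Ifit3, an antiviral protein, had 28.3, 16.2 and 18.3 CPM in the controls and 10.8, 8.86 and 8.81 CPM in Gls1_CamkIIaCre, while Ccl12, a monocyte chemokine and the only one of the 8 outside the fixed lists, had 2.35, 1.15 and 1.02 against 0.750, 0.501 and 0.475 CPM.

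Genes next to the members on the chromosomes, which share the location but not the family, did not move as a block. Of 21 tested genes within 250 kb of a member and outside the GTPase families, 1 fell and 1 rose, with a median log2 fold change of -0.026. Rack1, a ribosome scaffold near Irgm1, fell by 0.18 on the log2 scale (edgeR adjusted p = 0.0264), and Synpo, the actin-binding synaptopodin gene near Iigp1, rose by 0.22 (0.00132). In the cluster on chromosome 3, Gtf2b (0.016), Kyat3 (-0.22), Pkn2 (0.0027) and Pdlim5 (-0.093) had the log2 fold changes in brackets, and none of the 4 passed by edgeR.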

How the data were processed

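Prefrontal cortex RNA of 3 control and 3 Gls1_CamkIIaCre mice was extracted with TRIzol and made into SMARTer libraries, per the labels' protocols. The deposited files hold raw counts for each gene and, from the authors as well, FPKM, a level scaled to transcript length and depth, which served for levels between genes and as an alternative input. The submitters' processing notes name GRCm38 (mm10) as build. No aligner, counting tool or use of strand is named, being not given in the sources used here. Total counts and the counts per gene set the precision.

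The test was edgeR 4.0.16 under R 4.3.3 (TMM factors, filterByExpr, robust glmQLFit and glmQLFTest, no covariate), with Benjamini-Hochberg adjustment over 14440 genes and a threshold of 0.05. Libraries within a group were not copies of each other (chi-square per degree of freedom 2.27 to 4.16), so each was counted. Each library is 1 mouse, per the series description. The fit was first tested on simulated counts. Alternatives were DESeq2 1.42.0, limma 3.58.1 (voom, or on log2 FPKM with a pseudocount of 1 or 0.1), other factors, other filters, a prior count of 2, a replicate block and leaving out each library.

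The members and gene lists were chosen with earlier results of these data known. Named genes were all 9 members, every called gene of a list where 6 or fewer were called and otherwise those of smallest p, the receptors with Irf1 and Ifng, and the 8 genes of most similar pattern. The 4 promoters were picked from 7 after their matches were seen. Irf9, Trim21, Pycard, Casp1, Casp4, Nlrp3, Aim2, Gzma, Cd3e, the MHC class II genes and the neighbouring genes were named after their values were seen. Markers of cell types are given by counts. Stretches of 75 bases were compared between GENCODE M21 transcripts. Some genes covered by the rule for named genes are not reported here.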

Additional observations from a re-analysis of the deposited data

How the results depend on the processing

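All 9 members were lower in Gls1_CamkIIaCre in 135 of 135 fits. These cover each alternative except the prior count of 2, run for their median only. None of the 1468 fits of the 98 named genes reversed a fold change that was called in that fit or in the main one. Sign changes of genes called in neither were not counted. Gm4070, for example, had a log2 fold change of -0.35 with all libraries and 0.24 without control 1. How many genes passed depended on the setting. Over all genes, 1190 were called, 674 on log2(FPKM + 1), 729 on log2(FPKM + 0.1), and 415 to 1098 when a library was left out. Of all calls 48.0% were higher, against 36.4% with upper-quartile factors, 17.2% on log2(FPKM + 1) and 16.7% on log2(FPKM + 0.1). Of the 9 members, 4 passed, against 7 with DESeq2 (914 genes called in all), 8 with limma voom (1004), 2 with no filter on low counts (1392) and 1 to 7 without a library. Their median log2 fold change was -1.35, and -0.76 on log2(FPKM + 1), which shrinks genes of low level, and -1.54 to -0.99 without a library. Of the other induced GTPases 5 were called, 1 on log2(FPKM + 1) and 0 to 6 without a library. Of the pathway genes 8 were called, 4 on log2(FPKM + 1), 5 on log2(FPKM + 0.1) and 3 to 7 without a library. Of the type I genes 18 were called, 11 on either FPKM scale and 10 to 19 without a library. Of the antigen presentation genes 5 were called, 10 with DESeq2, 11 with limma voom, 8 on log2(FPKM + 0.1) and 1 to 10 without a library. Of the loading and inflammasome genes 3 were called, 1 with DESeq2 or on log2(FPKM + 1) and 0 to 2 without a library. Of the dynamin-like genes 2 were called, 0 on either FPKM scale and 0 to 4 without a library. The cause of these shifts was not tested, except that leaving out a library leaves fewer samples.

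Same-numbered libraries had correlations of 0.147, -0.0350 and 0.165 of their deviations from the group means. With so few libraries these values cannot decide whether the numbers pair the mice, and the main fit used no pairing. With the replicate number as a block, 1758 genes were called, among them 7 members, 8 of the other induced GTPases and 12 of the antigen presentation genes. Controls 1 and 3 correlated best with the library of their own number and control 2 did not. The members had 39 to 518 counts per library, and 6 related GTPases were too low to test. Spread among libraries limited the members as well as depth. Without control 1 the SE went from 0.586 to 0.224 for Iigp1, and from 0.132 to 0.130 for Gbp7.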
